A study of Mus musculus with 9 samples.

Results

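The leukocyte-binding adhesion molecules are cell-surface proteins that white blood cells hold on to when they leave the blood or settle in a tissue. The 7 genes named for this group were *Icam1*, *Icam2*, *Vcam1*, *Sele*, *Selp*, *Alcam* and *Ncam1*. A gene was represented by the probe set annotated to its symbol alone, taking the brightest over the 9 arrays where there were several. For 6 of the 7 there was 1 such probe set each, among 19938 genes represented in this way, and *Selp* had none. They were followed in mouse 3T3 fibroblasts, an established line, in 3 groups of 3 arrays from independent cultures. The first group was Trap-80 knock-down cells stimulated for 1 h with 5 ng/ml TNF-α, the second was wild-type cells given the same stimulation, and the third was unstimulated wild-type cells. The knock-down cells stably expressed an shRNA against Trap-80, the Mediator subunit encoded by *Med17*, while the wild-type cells carried an irrelevant shRNA. The knock-down cells were a clonal line, so that the clone and the knock-down cannot be told apart. Unstimulated knock-down cells are not among the arrays used, and a gene that already differed between the lines at rest cannot be told apart from one whose response differed.

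Leukocytes in the blood first roll along the vessel wall on selectins, the products of *Sele* (E-selectin) and *Selp* (P-selectin), which recognise sialylated and fucosylated glycans. They then arrest through integrins, which bind members of the immunoglobulin family: ICAM proteins are ligands of the integrins that contain the β chain encoded by *Itgb2*, and VCAM proteins are ligands of the integrin whose α chain is encoded by *Itga4*. *Alcam* encodes a ligand of the T-cell receptor CD6, and *Ncam1* encodes a neural adhesion molecule that binds to itself and also marks human natural killer cells. *Sele*, *Vcam1* and *Icam1* are classic targets of NF-κB, the transcription factor of which p65 is a subunit, in endothelium exposed to TNF-α, and fibroblasts are known to carry the products of *Icam1* and *Vcam1* as well. The study asked how far genes induced by TNF-α depend on the contact between p65 and Mediator. The comparison between the lines shows only how the signal of these genes differed in the knock-down line under TNF-α. The contact itself, and the dependence of these genes on p65, were not tested with these arrays.

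The signal was the RMA log2 value of a probe set, so that a difference of 1 is a doubling. The signal of *Med17* was 6.35, 6.22 and 6.17 in the stimulated knock-down cells, against 7.98, 7.93 and 7.77 in stimulated wild-type cells and 8.10, 8.09 and 7.89 in unstimulated wild-type cells. It was 32.0% of the stimulated wild-type level (log2 difference -1.64 ± 0.09 (SE), limma adjusted p = 4.8e-05). The study reported a larger loss of this mRNA by quantitative PCR, and no Trap-80 protein detectable by western blotting. Percentages given here are of array signal and were not calibrated against PCR. The 9 fibroblast markers tested all lay above the median signal of the tested probe sets, 5.02, and their mean signal per array was 10.18 to 10.42 in knock-down cells, 10.15 to 10.42 in stimulated wild-type cells and 10.17 to 10.45 in unstimulated ones. Among them, however, *Pdgfra* was lower by 1.89 and *Thy1* higher by 2.09 in the knock-down line (log2 differences of -1.89 and 2.09, limma adjusted p = 9.5e-05 and 4.8e-04), and *S100a4* was higher by 0.55 (adjusted p = 0.011). The share of all tested probe sets with an adjusted p under 0.05 between the lines was 5.96%, in either direction. All 9 endothelial markers were below that median, with list means per array of 3.67 to 3.72 in knock-down cells, 3.63 to 3.76 in stimulated and 3.49 to 3.76 in unstimulated wild-type cells, and *Pecam1* averaged 3.25. Of 8 leukocyte markers measured, 7 were below it, with list means of 3.57 to 3.65 in knock-down cells, 3.63 to 3.73 in stimulated and 3.57 to 3.68 in unstimulated wild-type cells, and *Ptprc* averaged 3.22. None of these 17 endothelial or leukocyte genes passed the test in any comparison; *Itgam* and *Itgb2*, which are also counter-receptors below, are among them.

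Promoter windows were available for 4 of the 7 genes, and *Vcam1*, *Icam2* and *Ncam1* had none. They are shown for *Icam1* and *Sele*, which were higher on all stimulated wild-type arrays than on the unstimulated ones, and for *Alcam*, which was not. The window of *Selp*, which had no probe set, is not shown. Each window is the RefSeq sequence (GRCm38.p6) from 250 bases before the annotated start to 50 bases after it, read 5′ to 3′ on the strand of the gene, at chr9:21015690-21015989 (plus strand) for *Icam1*, chr1:164047984-164048283 (plus strand) for *Sele* and chr16:52453032-52453331 (minus strand) for *Alcam*. Capitals mark matches to any of 5 motifs searched on both strands.
Icam1: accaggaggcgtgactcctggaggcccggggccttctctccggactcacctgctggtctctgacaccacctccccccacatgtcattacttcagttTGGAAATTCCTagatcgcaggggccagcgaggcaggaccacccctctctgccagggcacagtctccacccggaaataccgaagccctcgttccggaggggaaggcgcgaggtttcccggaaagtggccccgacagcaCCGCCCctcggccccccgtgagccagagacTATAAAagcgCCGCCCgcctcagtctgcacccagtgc
Sele: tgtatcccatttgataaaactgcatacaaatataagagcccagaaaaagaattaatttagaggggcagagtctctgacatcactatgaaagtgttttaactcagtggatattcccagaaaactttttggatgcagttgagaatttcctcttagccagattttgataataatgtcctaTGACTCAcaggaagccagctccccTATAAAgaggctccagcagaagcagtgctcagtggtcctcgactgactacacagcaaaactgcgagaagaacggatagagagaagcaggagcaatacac
Alcam: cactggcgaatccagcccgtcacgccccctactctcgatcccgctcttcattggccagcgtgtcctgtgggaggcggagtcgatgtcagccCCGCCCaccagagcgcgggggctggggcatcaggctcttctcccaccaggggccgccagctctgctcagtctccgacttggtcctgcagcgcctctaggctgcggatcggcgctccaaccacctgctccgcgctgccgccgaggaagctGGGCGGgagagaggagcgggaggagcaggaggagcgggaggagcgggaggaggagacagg

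The window of *Icam1* held a match to the p65/c-Rel consensus on each strand, overlapping each other and beginning 154 bases before the start (TGGAAATTCC on the strand of the gene), 2 GC boxes (GGGCGG or its reverse complement) and a TATA box (TATAAA) that began 13 bases after the annotated start. That of *Sele* held an AP-1 site (TGANTCA, which reads the same on both strands) 73 bases and a TATA box 49 bases before the start, and no match to the p65/c-Rel consensus. That of *Alcam* held 2 GC boxes, which began 159 and 10 bases before the start. That of *Selp* held an AP-1 site 139 bases before the start. None of these windows held the NF-κB consensus, which can overlap the p65/c-Rel consensus. Over all 32851 RefSeq windows of the same length, 8.38% held the p65/c-Rel consensus, 4.51% the NF-κB consensus, 7.81% an AP-1 site, 35.7% a GC box and 13.6% a TATA box. A match of letters is a description and does not show binding in these cells. The lack of a match to these strings in a window does not show that a gene has no such site.

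After 1 h with TNF-α, wild-type fibroblasts had higher signal for *Vcam1*, *Icam1* and *Sele* on every stimulated array than on any unstimulated one. The mean differences were 2.54-fold, 2.28-fold and 1.67-fold. *Alcam*, *Ncam1* and *Icam2* differed by at most 0.10 on the log2 scale and their arrays overlapped. With 3 arrays a group and p-values adjusted over 23410 probe sets, 0 of the 6 genes passed in the limma model of the 3 groups, in which 0.115% of tested probe sets passed in either direction (27 in all). The share of probe sets higher on all stimulated arrays without overlap was 4.01%. At an unadjusted p under 0.05 there were 3 of the 6 genes, all higher, against 3.52% of tested probe sets higher at that level.

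*Vcam1*, the vascular cell adhesion molecule bound by the α4 integrins, had log2 signals of 10.93, 10.93 and 11.59 in stimulated wild-type cells, against 9.73, 9.55 and 10.14 in unstimulated ones. The lowest stimulated array was thus above the highest unstimulated array, although array 3 was the brightest in both groups. The mean was 11.15 ± 0.39 with TNF-α and 9.80 ± 0.30 without (SD, n = 3 each), and the difference was 1.35 ± 0.21 (SE, 95% interval 0.86 to 1.83, limma adjusted p = 0.084). Between arrays of the same number it was 1.20, 1.38 and 1.45, a narrower spread than that of either group. With the replicate number as a block the standard error fell to 0.08 and the difference passed the test (limma adjusted p = 7.7e-04).

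*Icam1*, a ligand of the leukocyte integrins with the *Itgb2* chain, followed the same order of arrays. Its log2 signals were 5.92, 6.0 and 6.56 in stimulated wild-type cells, against 4.90, 4.79 and 5.22 in unstimulated ones. The groups did not overlap, and array 3 was again the brightest of each. The mean was 6.16 ± 0.35 with TNF-α and 4.97 ± 0.23 without (SD, n = 3 each), a difference of 1.19 ± 0.21 (SE, 95% interval 0.71 to 1.66, limma adjusted p = 0.13). Same-numbered arrays differed by 1.01, 1.21 and 1.34, and with the block the standard error was 0.09 and the adjusted p 0.0017 by limma. With the block, 2 of the 6 genes were therefore called higher, against 0.218% of the tested probe sets. These are values of a whole culture, in which fewer cells with an RNA and less of it per cell cannot be told apart.

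With fewer arrays, the call made with the block was lost in every setting tried for *Icam1* and in some for *Vcam1*. When each number in turn was left out of every group, the blocked difference of *Vcam1* was 1.29 to 1.42 with adjusted p of 0.033 to 0.15, and it passed only without the arrays numbered 3. For *Icam1* the difference was 1.11 to 1.28 and the adjusted p 0.077 to 0.16. With the 6 wild-type arrays alone and the block, *Vcam1* passed (adjusted p = 0.046) and *Icam1* did not (adjusted p = 0.081). These 2 settings were added after the data had been seen.

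*Sele*, the selectin of activated endothelium, was a dim probe set, with a mean over the 9 arrays of 4.73, under the median of tested probe sets. Its log2 signals were 4.98, 5.03 and 5.22 in stimulated wild-type cells, against 4.22, 4.35 and 4.43 in unstimulated ones. Every stimulated array was brighter than every unstimulated one. The difference was 0.74 ± 0.13 (SE, 95% interval 0.46 to 1.03, limma adjusted p = 0.12), and same-numbered arrays differed by 0.76, 0.68 and 0.79. The block did not bring it past the threshold (adjusted p = 0.14). For each of these 3 genes the exact permutation test over 6 arrays, two-sided, gave p = 0.10, which is the smallest value that 20 regroupings allow.

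The remaining genes showed no difference beyond the spread of their arrays. *Alcam*, the CD6 ligand, had log2 signals of 7.90, 8.21 and 8.13 in stimulated wild-type cells, against 7.87, 8.26 and 8.09 in unstimulated ones (difference 0.01, 95% interval -0.26 to 0.28, limma adjusted p = 0.99). *Ncam1*, the neural cell adhesion molecule, had 8.79, 8.79 and 8.60 in stimulated wild-type cells, against 9.01, 8.79 and 8.62 in unstimulated ones (difference -0.08, 95% interval -0.34 to 0.17, limma adjusted p = 0.88). *Icam2*, a constitutive endothelial and platelet ligand of the same integrins as *Icam1*, was also dim, with a mean of 3.80. Its log2 signals were 3.89, 4.06 and 3.77 in stimulated wild-type cells, against 3.77, 3.80 and 3.85 in unstimulated ones (difference 0.10, 95% interval -0.13 to 0.33, limma adjusted p = 0.84). The 3 intervals leave room for differences of up to 0.34 in size. The median difference of the 6 genes was 0.42, beside -0.02 over all tested probe sets.

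**Figure D1:**
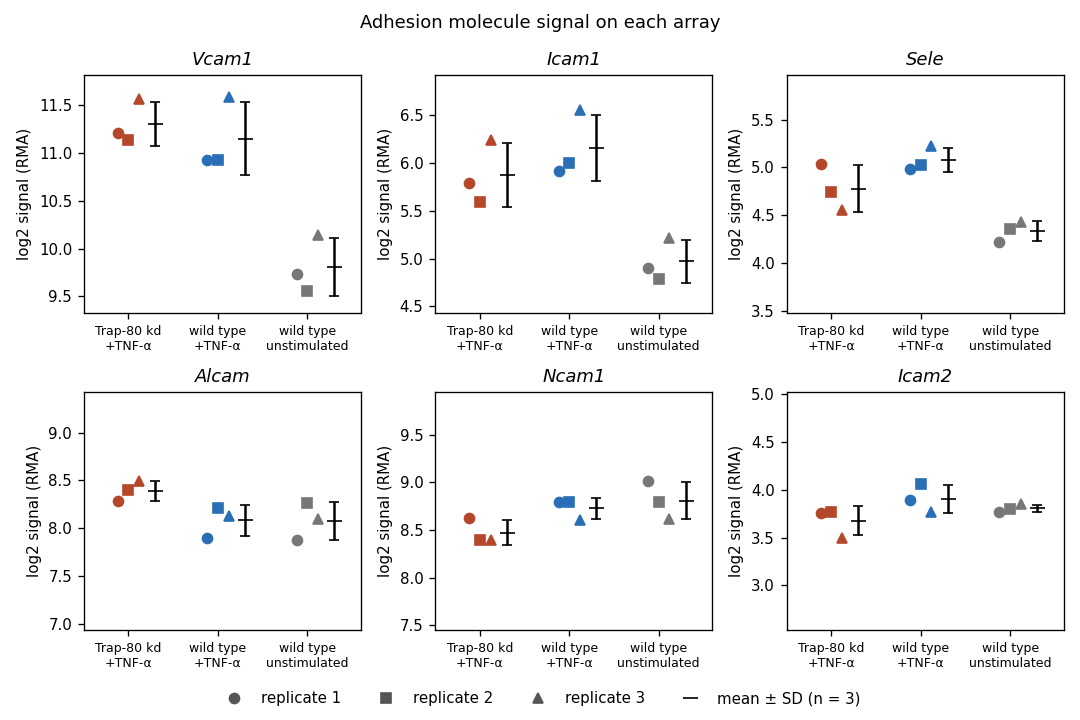
Log2 signal (RMA, y axis) of the 6 measured adhesion molecules on each array, with stimulated knock-down, stimulated wild-type and unstimulated wild-type cells from left to right; marker shape gives the replicate number and the bar the mean ± SD (n = 3). All panels span 2.5 log2 units. *Vcam1*, *Icam1* and *Sele* lie lowest in unstimulated cells, and the arrays numbered 3 are the highest of each group for *Vcam1* and *Icam1*.

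Under TNF-α, the adhesion molecules did not differ between the lines by an amount that passed the test. The differences ran in both directions: *Icam1*, *Sele*, *Ncam1* and *Icam2* had lower means in knock-down cells by 0.23 to 0.30 on the log2 scale, whereas *Alcam* and *Vcam1* had higher means by 0.31 and 0.16. In the limma model 0 of the 6 genes passed, although 5.96% of tested probe sets did (786 higher and 609 lower in knock-down cells, or 1000 higher and 454 lower after each array was centred on its median). With the replicate block 0 of the 6 passed, against 9.0% of probe sets. At an unadjusted p under 0.05, 1 gene was higher (*Alcam*) and 2 were lower (*Sele* and *Icam2*), against 9.34% of tested probe sets higher and 8.09% lower at that level. The median difference was -0.24, beside -0.02 over all tested probe sets.

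*Vcam1* had log2 signals of 11.21, 11.14 and 11.57 in stimulated knock-down cells, against the 10.93, 10.93 and 11.59 of stimulated wild-type cells. The groups overlapped, since the array numbered 3 of the wild type was the brightest of all. The mean in knock-down cells was 11.31 ± 0.23 (SD, n = 3), which was 112% of the wild-type signal with a 95% interval of 80% to 156% (difference 0.16 ± 0.21 (SE), limma adjusted p = 0.78). *Icam1* had 5.79, 5.59 and 6.24 in knock-down cells, against 5.92, 6.0 and 6.56 in the wild type. Each knock-down array was below the wild-type array of its number, by 0.12, 0.41 and 0.31, but the groups overlapped. The mean of 5.87 ± 0.34 (SD, n = 3) was 82.2% of the wild-type signal, with an interval of 59.0% to 114% (difference -0.28 ± 0.21 (SE), limma adjusted p = 0.57). The block gave an adjusted p of 0.094 for *Icam1* and 0.33 for *Vcam1*.

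The signal of *Sele* in knock-down cells was 5.04, 4.74 and 4.55, against 4.98, 5.03 and 5.22 in stimulated wild-type cells. The 2 lower knock-down arrays were under every wild-type array, and the array numbered 1 was not. The mean was 4.77 ± 0.25 in knock-down and 5.08 ± 0.12 in wild-type cells (SD, n = 3 each), or 81.1% of the wild-type signal with an interval of 66.6% to 98.8%. The difference of -0.30 ± 0.13 (SE) had an unadjusted p of 0.040 and an adjusted p of 0.25 by limma. Between same-numbered arrays it was 0.06, -0.29 and -0.67.

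*Alcam* was the only one of the 6 whose groups did not overlap. Its signal was 8.28, 8.40 and 8.49 in knock-down cells, against 7.90, 8.21 and 8.13 in stimulated wild-type cells. The mean was 8.39 ± 0.11 in knock-down and 8.08 ± 0.16 in wild-type cells (SD, n = 3 each), 124% of the wild-type signal with an interval of 103% to 149% (difference 0.31 ± 0.12 (SE), limma adjusted p = 0.21). Over all probe sets, 10.9% were higher in knock-down cells without overlap. With the block the adjusted p was 0.050 and still above the threshold before rounding. *Ncam1* had 8.63, 8.40 and 8.39 in knock-down cells, against 8.79, 8.79 and 8.60 in the wild type, 84.1% of the wild-type signal (difference -0.25, 95% interval -0.51 to 0.01, limma adjusted p = 0.31). *Icam2* had 3.76, 3.77 and 3.50 in knock-down cells, against 3.89, 4.06 and 3.77 in the wild type (difference -0.23, 95% interval -0.46 to -0.01, limma adjusted p = 0.27). The highest knock-down array of *Ncam1* lay within the wild-type range, and that of *Icam2* equalled the lowest wild-type array to 2 decimals.

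**Figure D2:**
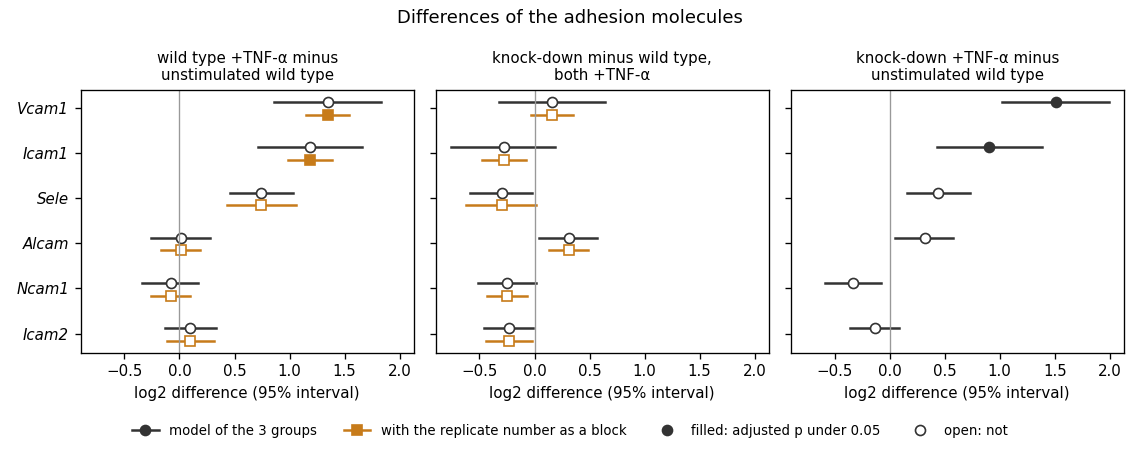
Log2 differences (x axis) of the 6 adhesion molecules with 95% intervals, for wild-type cells with TNF-α minus without (left), knock-down minus wild type under TNF-α (middle) and stimulated knock-down minus unstimulated wild type (right). Circles are the limma model of the 3 groups and squares, drawn in the left and middle panels, the model with the replicate number as a block; filled symbols have an adjusted p under 0.05, and of the symbols drawn only those of *Vcam1* and *Icam1* on the left (squares) and right (circles) are filled.

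**Figure D3:**
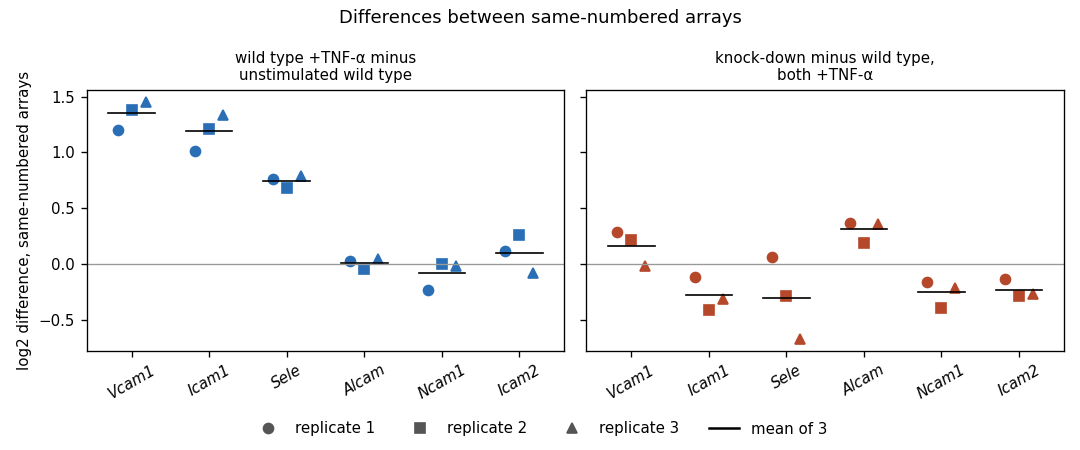
Log2 differences (y axis) between arrays of the same replicate number, by gene, for wild-type cells with TNF-α minus without (left) and knock-down minus wild type under TNF-α (right); lines are means of 3. The TNF-α differences of *Vcam1* (1.20 to 1.45), *Icam1* (1.01 to 1.34) and *Sele* (0.68 to 0.79) are all above 0, and those of *Sele* between the lines run from 0.06 to -0.67.

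Stimulated knock-down cells were also set against unstimulated wild-type cells, a difference that holds both the stimulation and the line and shares its arrays with the other comparisons. *Vcam1* and *Icam1* were higher by 1.51 and 0.90 on the log2 scale and passed the test. In all, 2 of the 6 genes passed, both higher, against 8.25% of tested probe sets in either direction, and 4 of the 6 were higher without overlap, against 10.8%. The means of *Vcam1* were 11.31 ± 0.23 in stimulated knock-down and 9.80 ± 0.30 in unstimulated wild-type cells (2.84-fold, SE 0.21, limma adjusted p = 0.0030), and those of *Icam1* were 5.87 ± 0.34 in stimulated knock-down and 4.97 ± 0.23 in unstimulated wild-type cells (1.87-fold, SE 0.21, limma adjusted p = 0.030; SD, n = 3 each). The call of *Icam1* was lost without knock-down array 1 (adjusted p = 0.080) or 3 (0.098), or without unstimulated array 1 (0.11) or 2 (0.10). That of *Vcam1* held without each array (adjusted p of 0.0016 to 0.019). With the replicate number as a block the standard errors were 0.08 for *Vcam1* and 0.09 for *Icam1* (limma adjusted p = 5.7e-05 and 6.6e-04). Same-numbered arrays of these 2 groups correlated weakly, at 0.151, 0.002 and 0.221. *Sele* was higher by 0.44 (limma adjusted p = 0.068), and passed without knock-down array 3 (difference 0.55, adjusted p = 0.038). *Alcam* was higher by 0.32 (adjusted p = 0.16), *Ncam1* lower by 0.33 (log2 difference -0.33, adjusted p = 0.12) and *Icam2* lower by 0.13 (log2 difference -0.13, adjusted p = 0.51), and none of these passed in the unblocked model. With the block *Alcam* and *Ncam1* passed (limma adjusted p = 0.037 and 0.031). In that model 4 of the 6 genes passed, against 12.1% of tested probe sets.

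The order of the 3 groups differed from gene to gene. For *Vcam1* it was stimulated knock-down, stimulated wild type and unstimulated wild type from high to low, and for *Icam1* and *Sele* the stimulated groups stood in the other order. For each of these 3 genes the stimulated groups were neighbours whose difference did not pass the test. For *Alcam* the wild-type means were 8.08 with TNF-α and 8.07 without, under the 8.39 of the knock-down cells. For *Ncam1* the mean was 8.48 in stimulated knock-down, 8.73 in stimulated wild-type and 8.81 in unstimulated wild-type cells. For *Icam2* it was 3.67 in stimulated knock-down, 3.91 in stimulated wild-type and 3.81 in unstimulated wild-type cells. No pair of groups passed the test for *Alcam*, *Ncam1* or *Icam2* in the unblocked model.

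The spread within groups was shared by *Vcam1* and *Icam1*. The array numbered 3 exceeded the mean of its group for *Vcam1* by 0.26 in stimulated knock-down, 0.44 in stimulated wild-type and 0.34 in unstimulated wild-type cells. For *Icam1* the excess was 0.37 in stimulated knock-down, 0.40 in stimulated wild-type and 0.25 in unstimulated wild-type cells. The other 6 arrays were below their group mean for both genes, by 0.07 to 0.29. The other genes did not show this order in all groups. The arrays numbered 3 were below their group mean for *Ncam1* in every group, by 0.08 to 0.18. For *Icam2* they were 0.18 below it in knock-down cells, 0.14 below it in stimulated wild-type cells and 0.05 above it in unstimulated ones. For *Sele* they were 0.23 below it in knock-down cells, 0.14 above it in stimulated wild-type cells and 0.09 above it in unstimulated ones. For *Alcam* they were above it by 0.02 to 0.10, and the array numbered 2 was the highest of both wild-type groups. Neither the labels nor the methods say what a number marks, and the part of the number in the results was not tested beyond the block.

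Genes known to work with these molecules were described from 5 lists. Of 14 measured counter-receptors (of 15), which leukocytes rather than fibroblasts mostly use, 0 passed in either direction for TNF-α and 0 for the knock-down, and their median differences were 0.01 and -0.04. None had a limma p under 0.05 for TNF-α without adjustment, and for the knock-down 2 were higher and 3 lower at that level. The integrin chains *Itgb2* and *Itga4*, partners of the ICAM proteins and of VCAM, averaged 3.78 and 3.46 on the log2 scale, and 9 of the 14 genes were below the median signal. With the block, *Spn*, a sialomucin of T cells, was called higher in the knock-down line than in the wild type under TNF-α (log2 difference 0.59, limma adjusted p = 0.014, and 0.051 without the block). The blocked model called 9.0% of tested probe sets between the lines, in either direction. Against unstimulated wild-type cells, *Spn* was higher by 0.57 (limma adjusted p = 0.048) and *Glg1*, an E-selectin ligand of the Golgi, was lower by 0.33 (log2 difference -0.33, limma adjusted p = 0.018). *Itga9*, an integrin chain that also binds VCAM, was lower by 0.46 (log2 difference -0.46, limma adjusted p = 0.050, under the threshold before rounding). In that unblocked comparison 8.25% of tested probe sets passed in either direction. The call of *Spn* was lost without any single array except unstimulated array 3 (adjusted p up to 0.15), that of *Glg1* without knock-down array 1 or 3 or unstimulated array 1 or 2 (up to 0.061), and that of *Itga9* without any single array except knock-down array 1 (up to 0.14).

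Among 19 other adhesion molecules of the vessel wall or of the families of *Icam1* and *Ncam1*, 0 passed for TNF-α. Between the lines 3 passed, against 5.96% of tested probe sets in either direction. *Cd47* (log2 difference 0.40) passed between the lines with the block (limma adjusted p = 0.026, and 0.074 without the block), as did 9.0% of tested probe sets in either direction. *Mcam*, an adhesion molecule of the immunoglobulin family on endothelium and smooth muscle, had 8.14, 8.02 and 8.55 in knock-down cells, against 6.08, 6.05 and 6.13 in stimulated wild-type cells (log2 difference 2.15, limma adjusted p = 9.5e-05). *F11r*, a junctional adhesion molecule, had 4.42, 4.92 and 5.02 in knock-down cells, against 3.65, 3.92 and 3.67 in the wild type (log2 difference 1.04, limma adjusted p = 0.0085). *Cd34*, a sialomucin that can carry L-selectin ligands, had 4.10, 4.25 and 5.03 in knock-down cells, against 6.44, 6.92 and 6.51 in the wild type (log2 difference -2.16, limma adjusted p = 0.0014). None of the 3 sets of arrays overlapped, and the calls held without each array. The median of this list was 0.01 between the lines and 0.05 for TNF-α. Against unstimulated wild-type cells the same list had 4 genes higher, among them *Cd47* (0.57, limma adjusted p = 0.013, lost at 0.052 without knock-down array 3), a receptor of thrombospondin, and 1 lower. Over all tested probe sets, 8.25% passed in that comparison in either direction.

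The 10 anchors and sheddases, which tie adhesion molecules to actin or cut them from the surface, included 3 that were higher in knock-down cells. Over all tested probe sets, 5.96% passed between the lines in either direction. *Actn1*, which encodes an α-actinin, rose by 0.75 (limma adjusted p = 6.5e-04), *Msn*, which encodes moesin, by 0.64 (adjusted p = 0.0053), and *Sdcbp*, which encodes the adaptor syntenin, by 0.39 (adjusted p = 0.017, lost at 0.051 to 0.068 without knock-down array 2 or 3 or any stimulated wild-type array). The median was 0.20, beside -0.02 over all tested probe sets, and 0 passed for TNF-α. *Flna*, the actin cross-linker filamin, passed against unstimulated wild-type cells (0.32, limma adjusted p = 0.030), a call lost at up to 0.10 without knock-down array 1 or 3, unstimulated array 1 or 3 or stimulated wild-type array 1, and under TNF-α its difference between the lines was 0.28 and did not pass. The sheddases *Adam10* and *Adam17* differed between the lines by 0.26 and 0.13 and did not pass. Of 9 enzymes that build selectin ligands or the polysialic acid of NCAM, 0 passed in any comparison in the unblocked model, with medians of -0.01 for TNF-α and 0.04 for the knock-down.

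Of 10 transcription factors known to act at the promoters of *Icam1*, *Vcam1* or *Sele*, 7 were measured. *Irf1*, an interferon regulatory factor of the *Vcam1* promoter, was the 1 that passed for TNF-α, against 0.115% of tested probe sets in either direction. Its signals were 10.21, 10.06 and 11.03 in stimulated wild-type cells, against 7.82, 7.72 and 8.38 in unstimulated ones, with array 3 again the brightest of each group (log2 difference 2.46, limma adjusted p = 0.022, and 3.1e-05 with the block). Without a single array its adjusted p ran from 0.023 to 0.16 and the call was lost in each case except without knock-down array 3. Between the lines it differed by -0.25 and did not pass. *Rela*, which encodes p65, differed by 0.20 with TNF-α and by -0.05 between the lines and did not pass in either. *Jun* differed by 1.03 with TNF-α and by 0.60 between the lines, and also passed in neither (limma adjusted p = 0.085 and 0.074). Between the lines *Ets1* was higher by 0.53 (limma adjusted p = 0.025, lost at 0.059 to 0.084 without any single knock-down or stimulated wild-type array) and *Cebpb* lower by 0.69 (log2 difference -0.69, limma adjusted p = 0.0085). Against unstimulated wild-type cells, *Irf1*, *Jun* and *Ets1* were higher by 2.21, 1.63 and 0.80 and *Atf2* was lower by 0.33 (log2 difference -0.33, limma adjusted p = 0.044, lost at up to 0.14 without any single array except knock-down or stimulated wild-type array 3). Of all tested probe sets, 5.96% passed between the lines and 8.25% against unstimulated wild-type cells, in either direction.

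**Figure D4:**
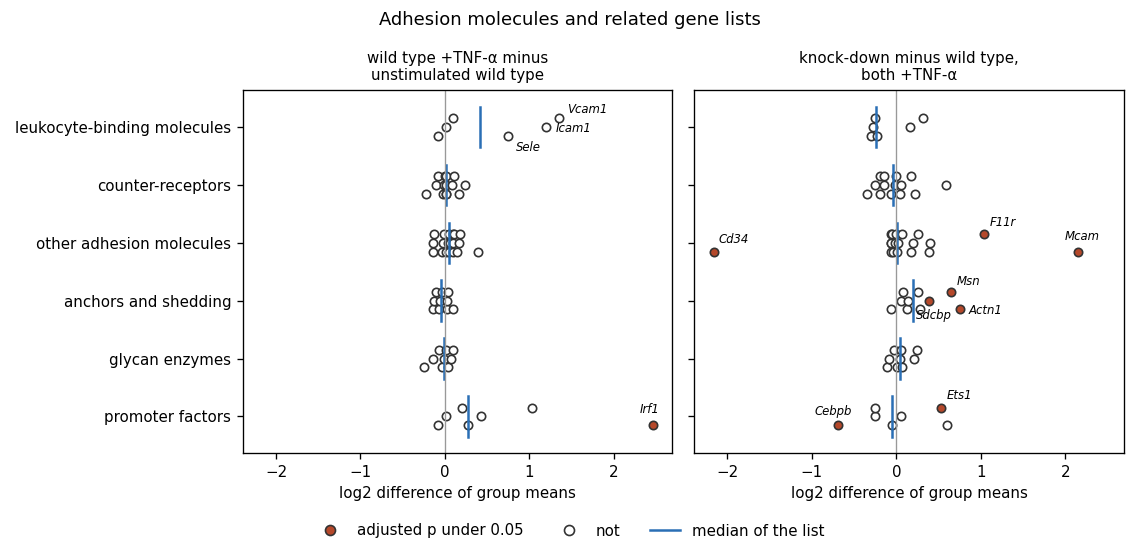
Log2 difference of group means (x axis) for the 6 adhesion molecules and 5 lists of related genes (rows), for wild-type cells with TNF-α minus without (left) and knock-down minus wild type under TNF-α (right). Each circle is a gene, filled where the adjusted p is under 0.05, and vertical blue lines are list medians; *Irf1* is the only filled gene on the left, and *Mcam*, *Cd34* and *F11r* lie far from 0 on the right, where no adhesion molecule of the first row is filled.

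The genes whose pattern over the 9 arrays was closest to that of *Icam1* and *Vcam1* were found by the root mean square difference after each gene was centred on its own mean, over 19937 other genes. *Icam1*, whose own root mean square about its mean was 0.57, was closest to *Gadd45a* and *Gadd45b* (0.11 each), then *Csf1* (0.20), *Bcl3* (0.21) and *Slc2a6* (0.22). *Vcam1*, at 0.72, was closest to *Stx11* (0.10) and *Cx3cl1* (0.12), then *Birc3* and *Cxcl2* (0.18 each) and *Sik1* (0.19). *Icam1* and *Vcam1* themselves differed by 0.26. All 10 of these genes had higher means in stimulated than in unstimulated wild-type cells, by 0.82 to 1.57. That direction follows from how they were chosen, by closeness over the same arrays to genes that were themselves higher, and is no separate result. The arrays are the same for every gene, so that the likeness includes what the arrays share. Other members varied by less than 1 over the 9 arrays and were not searched.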

How the data were processed

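RNA from 3 groups of 3 cultures was hybridised to 9 Affymetrix Mouse Gene ST arrays. The authors deposited log2 values per probe set, made with RMA (background correction, quantile normalisation and summary of probes; version not given in the sources used here). RMA sets the distributions of the arrays alike, so a shift of most genes would not be seen. Array medians were 4.47 to 4.59, and arrays correlated at 0.985 to 0.992 within and 0.981 to 0.991 between groups. No depth exists for arrays; their number limits precision (median standard error 0.10).

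Of 35557 probe sets, 21789 carried 1 symbol in the platform annotation, 1621 several and 12147 are unnamed here. The 23410 with a gene were tested without a filter on low signal. All 9 arrays entered one limma model (limma 3.58.1, R 4.3.3, 3.20 prior degrees of freedom), with Benjamini-Hochberg adjustment over these probe sets and a threshold of 0.05. Single genes were also compared by an exact permutation test. The replicates are labelled as biological.

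The groups share replicate numbers. Same-numbered arrays deviated together for TNF-α (correlations 0.298, 0.110 and 0.403) and for the knock-down (0.147, 0.274 and 0.465), so the number was used as a block beside the unblocked model. Some arrays of different numbers also correlated (0.249 between stimulated array 1 and unstimulated array 2, and 0.160 between knock-down array 1 and stimulated wild-type array 2, which is above the 0.147 of the arrays numbered 1), and the pairing rests on the data alone. Alternatives were the block, the 6 arrays of a comparison, all probe sets, only those above the median signal, centring, repeated quantile normalisation, a variance trend, the mean of probe sets and leaving out each array. A rule named all members, *Med17*, up to 4 genes past the threshold per list and comparison, and the 5 genes closest in pattern to members that varied by at least 1. Members, lists and rules were chosen with earlier results of these data known. Figures were drawn with matplotlib 3.10.9.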

Additional observations from a re-analysis of the deposited data

How the results depend on the processing

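For TNF-α in wild-type cells, the number of the 6 adhesion molecules past the threshold was 0 in the model of the 3 groups, 2 with the replicate number as a block (*Vcam1* and *Icam1*), 1 with only probe sets above the median signal tested (*Vcam1*, adjusted p = 0.042), 1 with the 6 wild-type arrays and the block, and 0 to 1 with the block and a number left out of every group. For the knock-down under TNF-α it was 0 under every alternative run, the block included. For stimulated knock-down against unstimulated wild-type cells it was 2, or 1 with all deposited probe sets tested (*Icam1* lost, adjusted p = 0.067), 4 with the block (*Alcam* and *Ncam1* added, adjusted p of 0.037 and 0.031), and 1 to 2 with an array left out. Same-numbered arrays of these 2 groups correlated at only 0.151, 0.002 and 0.221, and knock-down array 1 did so at 0.161 with unstimulated array 2. The block was fitted to all 3 groups together, and these correlations do not settle whether the numbers pair these 2 groups. The block changed no other call of the adhesion molecules. In the related lists it added *Spn* and *Cd47* between the lines and *Gcnt1* against unstimulated wild-type cells (log2 difference -0.33, adjusted p = 0.041). The causes were not tested.

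The TNF-α difference of *Alcam*, near 0 throughout, turned to -0.05 with arrays centred on their medians, and lay between -0.09 and 0.10 when an array was left out and at -0.01 without replicate 3 of every group with the block; that of *Ncam1* was between -0.18 and 0.02 when an array was left out. No other difference run under the alternatives changed direction. Those run were of the adhesion molecules, of *Med17*, and of list genes named by the rule in the comparison where they passed. Other differences given here, such as those of *Irf1* and *Rela* between the lines, were not tested in this way. Centring moved the median of all probe sets by 0.06 or less.

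Probe sets past the threshold for TNF-α numbered 27, but 13 with all probe sets, 9 with 6 arrays, 55 with the block, 41 above the median signal and 9 to 23 with an array left out. For the knock-down they numbered 1395, 2108 with the block and 738 to 1596 with an array left out, and for the third comparison 1932, 2822 with the block (12.1% of tested probe sets) and 1147 to 1944 with an array left out. *Sele* and *Icam2* lie below the median signal and were not tested under that filter.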
